A study of Mus musculus with 3 samples.

Results

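The genes of the phagocyte NADPH oxidase were measured in single mouse macrophages with and without exposure to lipoproteins of *Borrelia burgdorferi*, the bacterium of Lyme disease. The 5 genes, *Cybb*, *Cyba*, *Ncf1*, *Ncf4* and *Rac2*, were taken by their symbols from the 32285 genes of the count matrices, and each symbol matched 1 row. Bone marrow of female C3H/HeN mice, 6-8 weeks old, was pooled and grown into bone marrow-derived macrophages (BMDMs) with medium conditioned by L929 cells. The BMDMs received PBS (Ctrl) or the borrelial lipoproteins (*Bb*LP) at 1 µg/mL, and those exposed for 1 hour are called LP1 and those exposed for 4 hours LP4. Ctrl cells were collected at 4 hours. LP1 thus had no control of its own time, and exposure and time of collection cannot be told apart in its ratios to Ctrl. For every condition the cells of 3 wells went into 1 pool and became 1 library of the droplet-based 3' method, which tags every captured transcript with a cell barcode and a unique molecular identifier (UMI). No condition has a replicate, no test between conditions was made, and all intervals are at the 95% level and cover counting error only.

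The phagocyte NADPH oxidase moves electrons from NADPH in the cytosol across a membrane onto oxygen and so makes superoxide, the first product of the respiratory burst. Its catalytic core is a membrane heterodimer of the *Cybb* and *Cyba* products, which is silent until cytosolic subunits and a Rac GTPase dock on it. In macrophages and neutrophils it acts at the plasma membrane and on phagosomes, and inherited loss of a core or cytosolic subunit causes chronic granulomatous disease, in which microbes that were taken up are poorly killed.

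After removal of barcodes with few UMIs, few genes or at least 5% mitochondrial UMIs, between 4670 and 6071 cells per library and 35688939 to 61402275 UMIs remained. The median depth of a kept cell was 5133 UMIs in Ctrl, 9343 after 1 hour and 11784 after 4 hours. Levels were therefore expressed as UMIs of a gene per 1000000 UMIs of its library (CPM), and shares of cells were computed after each cell was thinned to 2000 UMIs. A UMI at the 3' end counts a captured transcript once, so no division by length was made. Whether reads in introns were counted is not given in the sources used here, and the genes span 8.155 kb (*Cyba*) to 52.52 kb (*Cybb*), so orders between genes are orders of UMIs counted, and the part of gene length in them was not tested. The label of macrophages was checked against markers, and 10 of 10 macrophage markers reached 10 CPM in every library, at a summed level of 11773 to 12286 CPM. Between 4 and 10 barcode sequences were shared by any pair of libraries.

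Promoter sequence could be shown for 3 of the 5 genes, *Cybb*, *Cyba* and *Ncf1*, which behaved in 3 different ways in the data that follow. Each line gives the 250 bases before the RefSeq transcription start on GRCm38.p6, read 5′ to 3′ on the minus strand, from which all 3 genes are transcribed. The windows are chrX:9469325-9469574 for *Cybb*, chr8:122432941-122433190 for *Cyba* and chr5:134229626-134229875 for *Ncf1*. The *Cybb* window lies inside the GENCODE interval of the gene, 9435252 to 9487771, so RefSeq and GENCODE place its start differently. The span of 52.52 kb given above is that of GENCODE. Capitals mark GAAA followed, after any 2 bases, by GAAA, read on either strand, which is the core of the interferon-stimulated response element.
Cybb: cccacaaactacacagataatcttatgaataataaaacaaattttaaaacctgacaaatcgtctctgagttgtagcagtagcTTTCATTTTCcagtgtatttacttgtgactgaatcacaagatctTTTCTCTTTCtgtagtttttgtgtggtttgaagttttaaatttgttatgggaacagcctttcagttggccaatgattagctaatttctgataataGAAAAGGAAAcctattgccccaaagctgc
Cyba: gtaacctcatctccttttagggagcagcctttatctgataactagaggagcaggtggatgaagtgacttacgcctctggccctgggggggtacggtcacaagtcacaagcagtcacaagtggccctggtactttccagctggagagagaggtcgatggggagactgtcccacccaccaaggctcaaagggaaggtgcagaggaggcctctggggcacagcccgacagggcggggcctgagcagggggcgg
Ncf1: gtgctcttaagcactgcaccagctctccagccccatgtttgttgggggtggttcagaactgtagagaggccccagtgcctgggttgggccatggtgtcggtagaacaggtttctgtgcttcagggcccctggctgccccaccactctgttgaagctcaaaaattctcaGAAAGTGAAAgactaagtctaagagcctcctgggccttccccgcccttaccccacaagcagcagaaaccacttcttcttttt
The motif search was chosen after the levels of the genes had been seen, and a match is a string of letters, not a measured binding site. The *Cybb* window held 3 matches, whose first bases lie 168, 124 and 29 bases before the start, and these do not overlap each other. *Cyba* held 0 matches and *Ncf1* held 1, at 82 bases before the start. Of 32851 RefSeq promoters of the same length, 2.98% held at least 1 match and 0.0122% held at least 3. These shares were not matched for GC content, which was low in the *Cybb* window. Whether base composition explains its matches, or whether the matches bear on the levels, was not tested. The GC content of the windows was 34% for *Cybb*, 60% for *Cyba* and 54.4% for *Ncf1*, beside a median of 52.4% over all promoters. In all, 7 motifs were searched in the windows. The letters GGGCGG of a GC box, searched on both strands, occurred 2 times before *Cyba*, 1 time before *Ncf1* and 0 times before *Cybb*, and in 32.7% of all promoters. The ETS core GGAA, some of whose matches overlap those in capitals, occurred 3 times before *Cybb*, 2 times before *Cyba* and 1 time before *Ncf1* (93.4% of all promoters). An NF-kB-type motif, GGGA followed after any 4 bases by CC, occurred 1 time before each of the 3 genes (17.6%). CCAAT occurred 1 time before *Cybb* and 0 times before the others (33.8%), and TATAAA (12.4%) and the PU.1-type motif (2.44%) before none of the 3.

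*Cybb* and *Cyba*, the membrane pair, moved apart after 4 hours of *Bb*LP. *Cybb* (ENSMUSG00000015340, chromosome X, 9435252 to 9487771, minus strand, GENCODE vM21 on GRCm38) encodes the catalytic flavocytochrome that carries the electrons. Its level was 1173 CPM in Ctrl (95% interval 1161 to 1184), 1194 after 1 hour (1185 to 1204) and 1493 after 4 hours (1484 to 1503). LP4 was the highest of the 3 libraries, and LP1 lay 1.83% above Ctrl. The log2 ratio to Ctrl was 0.03 after 1 hour (95% interval 0.01 to 0.04). After 4 hours it was 0.35 (0.33 to 0.37), which is 27.3% higher and stays under the fold of 1.5 used here to call a gene higher or lower. Ordered by level among all genes, *Cybb* stood at rank 115 in Ctrl, 103 after 1 hour and 59 after 4 hours.

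*Cyba* (ENSMUSG00000006519, chromosome 8, 122424776 to 122432930, minus strand) encodes the smaller membrane partner, which stabilizes the catalytic subunit and offers the docking site for the *Ncf1* product. Its level was 2041 CPM in Ctrl (2027 to 2056), 1979 after 1 hour (1967 to 1991) and 1354 after 4 hours (1345 to 1363). The gene fell past 1.5-fold in LP4, by 33.7%, with a log2 ratio to Ctrl of -0.59 (95% interval -0.61 to -0.58), while the ratio of LP1 was -0.04 (-0.06 to -0.03). The call sits at the threshold, as the fall was 1.51-fold, and either of the TMM and median-of-ratios scalings brought it under 1.5-fold, to -0.39 on the log2 scale under the latter. The same scalings turned the LP1 value of *Cyba* to the other side of 0, at 0.03 under median of ratios.

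The ratio of *Cybb* to *Cyba* UMIs within a library does not depend on how libraries are scaled. It was 0.574 in Ctrl (95% interval 0.568 to 0.581), 0.603 after 1 hour (0.597 to 0.609) and 1.10 after 4 hours (1.09 to 1.11). *Cyba* thus had more UMIs than *Cybb* in Ctrl and LP1, and over the LP4 library as a whole the order was turned around. This was not so in every cluster of cells described below. The log2 change of the ratio from Ctrl was 0.07 (95% interval 0.05 to 0.09) after 1 hour and 0.94 (0.92 to 0.96) after 4 hours.

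**Figure D1:**
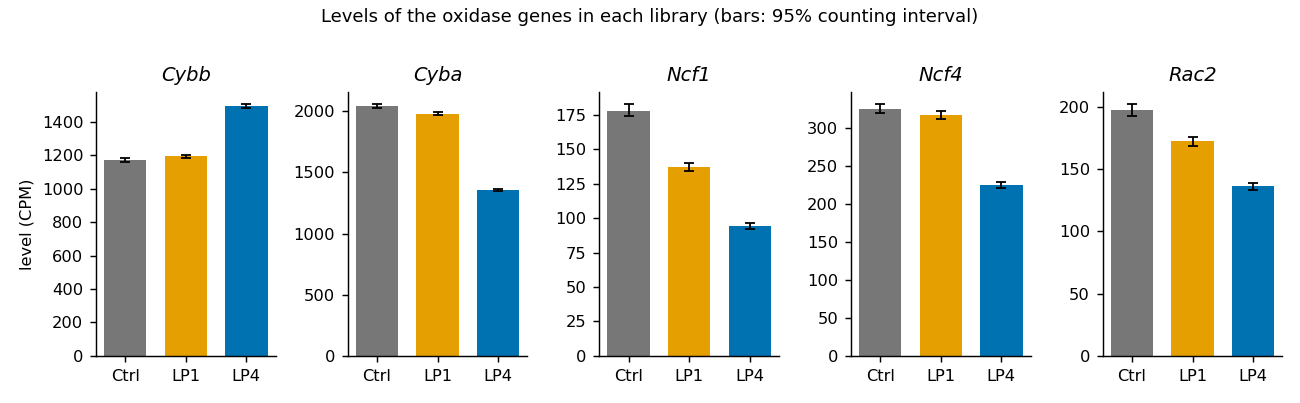
Level of each oxidase gene in CPM (vertical axes, each starting at 0 and scaled for its gene) in the 1 library of Ctrl (grey), LP1 (orange) and LP4 (blue); bars with caps are exact 95% Poisson intervals for counting error. LP4 is the highest library for *Cybb*, at 1493 CPM, and the lowest for the other 4 genes.

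The cytosolic subunits were lower in LP4 as well, and *Ncf1* was the gene with the largest change of the 5. *Ncf1* (ENSMUSG00000015950, chromosome 5, 134220053 to 134229625, minus strand) encodes the organizer, which is phosphorylated on activation and brings the cytosolic complex to the membrane. Its level was 178 CPM in Ctrl, 137 after 1 hour and 94.4 after 4 hours, from 5799 to 7202 UMIs per library. The order from highest to lowest was Ctrl, LP1, LP4. *Ncf1* fell past 1.5-fold in LP4, by 47.0%, with a log2 ratio to Ctrl of -0.92 (95% interval -0.97 to -0.86), and it stayed past that fold in all 8 alternatives of processing. In LP1 the ratio to Ctrl was -0.38 (-0.43 to -0.33), the lowest of the 5 genes, although not past 1.5-fold.

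*Ncf4* (ENSMUSG00000071715, chromosome 15, 78244801 to 78262580, plus strand) encodes the cytosolic subunit that binds a phosphoinositide of the phagosome membrane. Its level was 326 CPM in Ctrl, 318 after 1 hour and 225 after 4 hours, with log2 ratios to Ctrl of -0.04 (95% interval -0.07 to -0.0022) and -0.53 (-0.57 to -0.50). *Rac2* (ENSMUSG00000033220, chromosome 15, 78559167 to 78572783, minus strand) encodes the Rac GTPase typical of blood cells, which in its GTP-bound form completes the active enzyme. Its level was 197 CPM in Ctrl, 172 after 1 hour and 136 after 4 hours, with log2 ratios to Ctrl of -0.20 (-0.24 to -0.15) and -0.54 (-0.58 to -0.49). Neither gene passed 1.5-fold at either time. The LP1 value of *Ncf4* turned to the other side of 0, at 0.04, under median-of-ratios scaling, and under TMM.

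Against Ctrl, 0 of the 5 genes passed 1.5-fold in LP1, where 4.12% of 7747 genes with at least 10 CPM were higher and 2.74% lower by that fold (6.85% in either direction). In LP4, 0 were higher and 2 were lower, where 20.2% of 8019 genes were higher and 23.0% lower (43.2% in either direction). Under TMM scaling the LP4 background was 26.5% higher and 16.3% lower, and under median of ratios 27.8% higher and 15.0% lower. The median log2 ratio of the 5 genes was -0.04 in LP1, beside -0.02 over all genes tested, and -0.54 in LP4, beside -0.07. In LP4 the middle 50% of all genes lay between -0.54 and 0.45, so that *Cybb*, *Ncf4* and *Rac2* lay inside this range and *Cyba* and *Ncf1* below it. TMM and median of ratios moved the median of all genes in LP4 upward by 0.17 and 0.21.

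Between the treated libraries, 0 of the 5 genes passed 1.5-fold, where 16.6% of 7956 genes were higher and 18.1% lower in LP4 than in LP1 (34.7% in either direction). The log2 ratio of LP4 over LP1 was 0.32 for *Cybb* and between -0.55 for *Cyba* and -0.34 for *Rac2* for the other 4 genes. *Cyba* and *Ncf1* passed 1.5-fold in 1 of 8 alternatives of processing, the mean of cell shares, at -0.60 and -0.59. The log2 ratio of *Ncf1* was thus -0.38 from Ctrl to LP1 and a further -0.54 from LP1 to LP4, while *Cyba* and *Ncf4* held nearly all of their difference between LP1 and LP4. The comparisons share libraries and are not independent of each other.

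**Figure D2:**
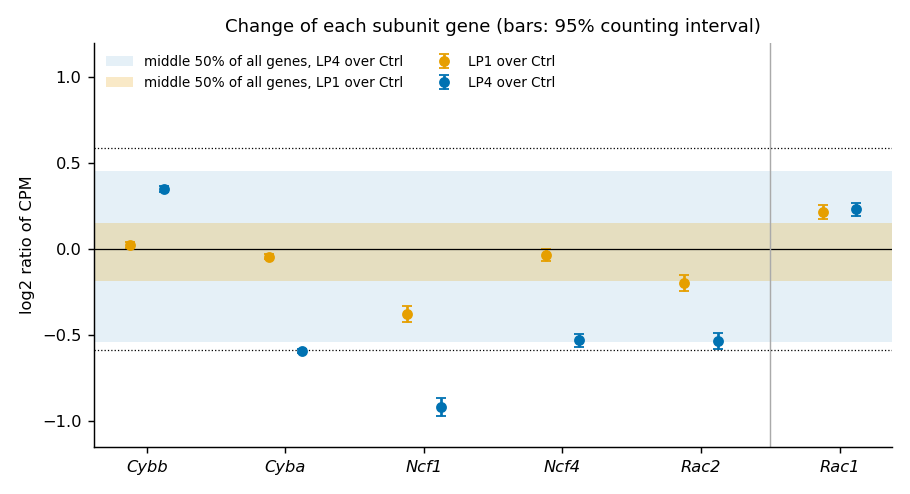
Log2 ratio of CPM to Ctrl (vertical axis) for each subunit gene, in LP1 (orange) and LP4 (blue), with exact 95% counting intervals; the shaded bands hold the middle 50% of all genes tested and the dotted lines mark 1.5-fold. *Cybb* is the 1 gene of the 5 above 0 in LP4, *Ncf1* lies lowest at -0.92, and *Rac1*, to the right of the vertical line, is shown for comparison.

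As a share of all RNA, the 5 genes together made up 0.392% of UMIs in Ctrl, 0.380% after 1 hour and 0.330% after 4 hours. The part taken by *Cybb* was 29.9% of these UMIs in Ctrl, 31.4% after 1 hour and 45.2% after 4 hours, and that of *Cyba* was 52.1%, 52.1% and 41.0%. *Ncf1* took 4.55%, 3.61% and 2.86%.
A level in CPM is a share of the library's UMIs, and the mean number of UMIs per cell over all genes was 5879 in Ctrl, 10361 after 1 hour and 13148 after 4 hours. As UMIs per cell, *Cyba* had 12 in Ctrl, 20.5 after 1 hour and 17.8 after 4 hours, *Cybb* 6.89, 12.4 and 19.6, and *Ncf1* 1.05, 1.42 and 1.24. Every 1 of these was higher in LP4 than in Ctrl. Whether an LP4 cell contained more RNA or was captured more fully cannot be told apart here, so the statements on levels are relative to the other RNA of the library.

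From Ctrl to LP4, the ratios of *Cyba* to the cytosolic subunits and *Rac2* changed less than that of *Cybb* to *Cyba*, which was not so for LP1, where the log2 change was 0.07 for *Cybb* to *Cyba*, 0.33 for *Cyba* to *Ncf1* and 0.15 for *Cyba* to *Rac2*. The ratio of *Cyba* to *Ncf4* UMIs was 6.27 in Ctrl, 6.23 after 1 hour and 6.01 after 4 hours, a log2 change from Ctrl to LP4 of -0.06 (95% interval -0.10 to -0.02). The ratio of *Cyba* to *Rac2* was 10.3, 11.5 and 9.95. The ratio of *Cyba* to *Ncf1* stood at 11.5 in Ctrl and at 14.4 and 14.3 after 1 and 4 hours. It thus differed from Ctrl in both treated libraries and little between them (log2 change of LP4 from LP1 -0.01, -0.06 to 0.04). *Cybb* gained on all 4 partners by 4 hours, with log2 changes from Ctrl of 0.88 against *Ncf4*, 0.88 against *Rac2*, 0.94 against *Cyba* and 1.27 against *Ncf1*.

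The second Rac, which is not among the 5, did not follow *Rac2*. *Rac1*, the Rac found in most cell types, had 222, 258 and 261 CPM, with log2 ratios to Ctrl of 0.22 and 0.23. The ratio of *Rac1* to *Rac2* UMIs was 1.13 in Ctrl, 1.5 after 1 hour and 1.92 after 4 hours. Its log2 change from Ctrl to LP4 was 0.77 (95% interval 0.71 to 0.83). Of the sequence windows of 50 bases in the last 500 bases of the *Rac2* transcripts, 0 of 1066 occur in another gene, so these genes do not share reads at the 3' end. The same count was 0 of 1969 for *Cybb*, 0 of 1247 for *Ncf4*, 7 of 1889 for *Ncf1* and 17 of 832 for *Cyba*.

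Shares of cells with a UMI were higher in LP4 than Ctrl for *Cybb* and lower for the other 4 genes, as were the levels. After thinning to 2000 UMIs, *Cybb* was seen in 84.1% of the 5949 Ctrl cells (exact binomial 95% interval 83.1 to 85.0), and in 83.3% of the 5052 LP1 cells (82.2 to 84.3) and 90.1% of the 4625 LP4 cells (89.2 to 90.9). *Cyba* was seen in 96.5% (96.0 to 96.9), 95.5% (94.9 to 96.1) and 88.0% (87.0 to 88.9), and *Ncf1* in 28.9% (27.7 to 30.1), 24.8% (23.6 to 26.0) and 17.1% (16.1 to 18.3). For *Cybb* the LP1 share lay below that of Ctrl at this depth and above it at 1000 UMIs per cell (66.4% against 64.9%), so no order of LP1 and Ctrl is read from it. *Ncf4* was seen in 45.6%, 44.7% and 33.4% of cells, and *Rac2* in 29.4%, 26.5% and 21.1%. Before thinning the shares were 57.2%, 66.9% and 60.2% for *Ncf1* and 99.2%, 99.8% and 99.0% for *Cyba*, which goes against the levels of *Ncf1* in CPM and with the deeper cells of LP1 and LP4. The thinned cells had held medians of 5194, 9353 and 11838 UMIs.

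Free RNA in the droplets can add UMIs to cells that do not express a gene, and the 13 stromal-like cells were looked at for this. Whether their UMIs came from free RNA, their own expression or doublets was not tested. These cells, which hold collagen genes and belong to no blood lineage, had a median of 14193 UMIs. After thinning, *Ncf1* and *Ncf4* were seen in 0 of 3 such cells in Ctrl, 0 of 3 in LP1 and 0 of 7 in LP4. With so few cells, 0 of 3 allows a share of up to 70.8% and 0 of 7 one of up to 41.0%. *Cyba* was seen in 2 of 3, 1 of 3 and 1 of 7 of these cells, *Cybb* in 0 of 3, 2 of 3 and 2 of 7, and *Rac2* in 0 of 3, 1 of 3 and 0 of 7. Counted over all 3 libraries without thinning, the stromal-like cells held 13.2 CPM of *Ncf1* (95% interval 2.71 to 38.4), 52.6 of *Ncf4*, 43.9 of *Rac2*, 285 of *Cybb* and 351 of *Cyba* (278 to 437). All 5 of these pooled values lay below the level in every library as a whole. By library, *Cybb* in these cells was at 146, 568 (391 to 798) and 199 CPM, and *Cyba* at 205, 396 and 368. In LP1 they held 33 UMIs of *Cybb* and 23 of *Cyba*, where the whole library had a ratio of 0.603. The level of free RNA is therefore not known from these cells.

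A single cell, at this depth, showed few of the 5 genes at a time. All 5 were seen in 2.69%, 2.59% and 1.17% of the cells of Ctrl, LP1 and LP4, and exactly 4 in 20.9%, 16.8% and 10.6%. The most frequent number was 3 genes in Ctrl (40.1% of cells) and LP1 (40.4%) and 2 genes in LP4 (42.6%). These counts depend on the thinned depth, since most cells carry under 1 UMI of *Ncf1*, *Ncf4* or *Rac2*.

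Counted per macrophage-like cell, the balance of the membrane pair differed in LP4 from the other libraries. Cells with more *Cybb* than *Cyba* UMIs made up 24.9% in Ctrl (95% interval 23.8 to 26.1), 26.6% after 1 hour (25.4 to 27.9) and 50.6% after 4 hours (49.1 to 52.1). The cells with *Cybb* and no *Cyba* UMI were 2.77%, 3.52% and 10.6%, and those with *Cyba* and no *Cybb* were 15.1%, 15.8% and 8.35%. Cells with fewer *Cybb* than *Cyba* UMIs made up 62.8%, 60.5% and 35.4%. This count of cells was chosen after the levels had been seen. It recounts the UMIs behind the library ratio of *Cybb* to *Cyba*, so it is no separate evidence. The cells differ between libraries, so no change within a cell was measured. *Cybb* was absent from more cells than an even spread of its UMIs would give, as it was seen in 84.2% of macrophage-like Ctrl cells where even sampling would give 91.3%. In LP4 these values were 90.2% and 95.3%.

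**Figure D3:**
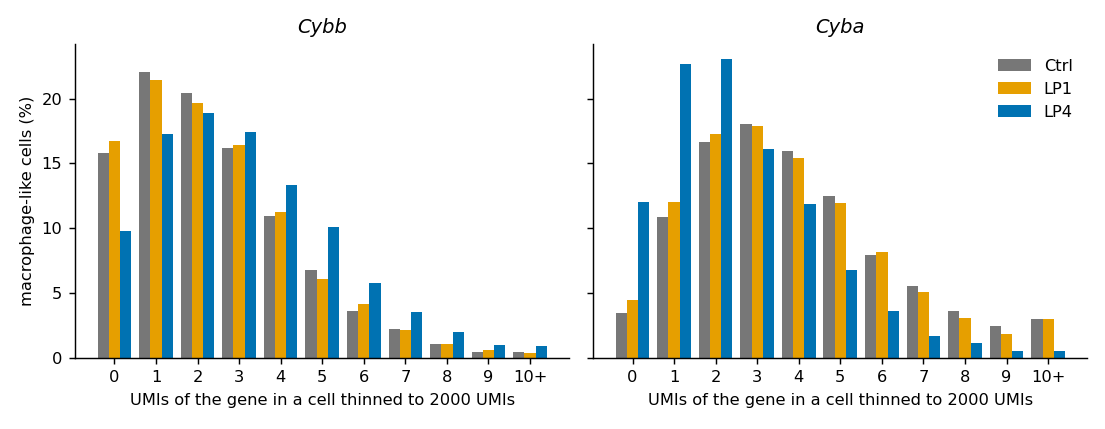
Percent of macrophage-like cells (vertical axis) by the number of UMIs of *Cybb* (left) or *Cyba* (right) in a cell thinned to 2000 UMIs (horizontal axis; the last bin holds 10 or more), in Ctrl (grey), LP1 (orange) and LP4 (blue). The LP4 bars lie further right than those of Ctrl for *Cybb* and further left for *Cyba*, and cells at 0 make up 9.77% of LP4 for *Cybb* and 12.04% for *Cyba*.

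The kept cells were grouped by genes that differed by less than 1.5-fold between libraries, with the oxidase and pathway genes left out of the grouping, and 6 clusters, called A to F, had 50 or more cells from each library. A to E were macrophage-like by markers and F was dendritic cell-like. Cluster A was led by *Egr3*, *Nr4a3* and *Apoe*, B by *Ccnd1*, *Psd3* and *Fgf13*, and C by *Fabp4* and *Adamts1*. D was led by *Mgll*, *Eef1a2* and *Cd200*, with *Ctsk*, *Mmp9* and *Atp6v0d2* further down among its leading genes. E was led by the histone genes *Hist1h1b* and *Hist1h2ap* and the mitosis gene *Cenpf*, with *Top2a* further down. A held 27.9% to 31.5% of the cells of a library, and E 4.73% to 8.06%.

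The clusters differed in their mix of subunits. In Ctrl, *Cyba* ranged from 1758 CPM in E to 3077 in D (95% interval 3024 to 3130), and *Rac2* from 147 in A to 305 in D (289 to 323). *Ncf1* had the reverse order for these clusters, with 109 CPM in D (99.2 to 119) and 230 in A (220 to 241). *Cybb* was highest in A at 1413 CPM and in F at 1398, whose intervals overlap, and lowest in E at 855 (825 to 887). *Ncf4* was highest in the dendritic cell-like F at 578 CPM (510 to 654), and lowest in B at 283 and A at 299. These places were largely kept in the treated libraries: D held the highest level of *Cyba* and of *Rac2* and the lowest of *Ncf1* in all 3 libraries, E the lowest of *Cybb* and of *Cyba*, and F the highest of *Ncf4*. The top places that moved were those of *Ncf1*, from A in Ctrl and LP1 to B in LP4, and of *Cybb*, from A to F.

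The parting of *Cybb* from its partners in LP4 was present in each of the 6 clusters. *Cybb* was higher after 4 hours than in Ctrl in 6 of 6, from a log2 ratio of 0.09 (95% interval 0.05 to 0.12) in A to 0.55 (0.50 to 0.60) in D. *Cyba* was lower in 6 of 6, from -0.64 in A to -0.49 in F. *Ncf4* and *Rac2* were lower in 6 of 6, from -0.72 to -0.41 and from -0.63 to -0.30, and the interval of *Rac2* reached past 0 in F alone. The *Cybb* to *Cyba* ratio was also higher in every cluster, by 0.73 in A to 1.13 in D on the log2 scale. In LP4, *Cybb* stood above *Cyba* in A, B and C. *Cyba* still stood above *Cybb* in D (2050 against 1579 CPM), E (1139 against 1001) and F (1886 against 1715). With 8 clusters at a finer resolution the ranges were wider. *Cybb* was then higher in LP4 in 7 and lower in 1, at -0.08. That 1 was led by *Egr3*, *Slc9a9* and *Cd86*, and held 84.7% of the Ctrl cells of A but 12.5% of its LP4 cells. The value of *Cybb* in A thus compares largely different cells and is not read as a rise within like cells. *Cyba* lay between -0.78 and -0.28 at the finer resolution and *Rac2* between -0.79 and -0.19. The *Cybb* to *Cyba* ratio was higher in 8 of 8, from 0.20 (95% interval 0.12 to 0.28) to 1.07.

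*Ncf1* was the gene whose change differed most between clusters. In A, where it was highest in Ctrl, it stood at 230 CPM in Ctrl, 176 after 1 hour and 76.3 after 4 hours, which gives LP4 a log2 ratio to Ctrl of -1.59 (95% interval -1.70 to -1.48). In the other 5 clusters this ratio lay between -0.90 (-1.09 to -0.71) in E and -0.58 (-0.75 to -0.40) in D, and none of their intervals overlapped that of A. Cluster A did not hold the same cells in Ctrl and LP4 by the finer grouping. Of its cells, 84.7% in Ctrl and 12.5% in LP4 fell into a finer cluster led by *Egr3*, *Slc9a9* and *Cd86*, and 12.6% in Ctrl and 84.9% in LP4 into one led by *Cxcl5*, *F13a1* and *Serpinb2*. Within these finer clusters the log2 ratio of *Ncf1* was -1.29 (-1.50 to -1.09) and -1.50 (-1.68 to -1.31), and in the other 6 finer clusters it lay between -0.92 and -0.45. After 1 hour the ratio of A was -0.39, within the range of -0.42 to -0.33 of all 6 clusters. The highest level over the lowest among clusters was 2.11-fold in Ctrl, 2.16-fold after 1 hour and 1.51-fold after 4 hours for *Ncf1*, whereas for *Cyba* it was 1.75-fold, 1.82-fold and 1.80-fold.

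**Figure D4:**
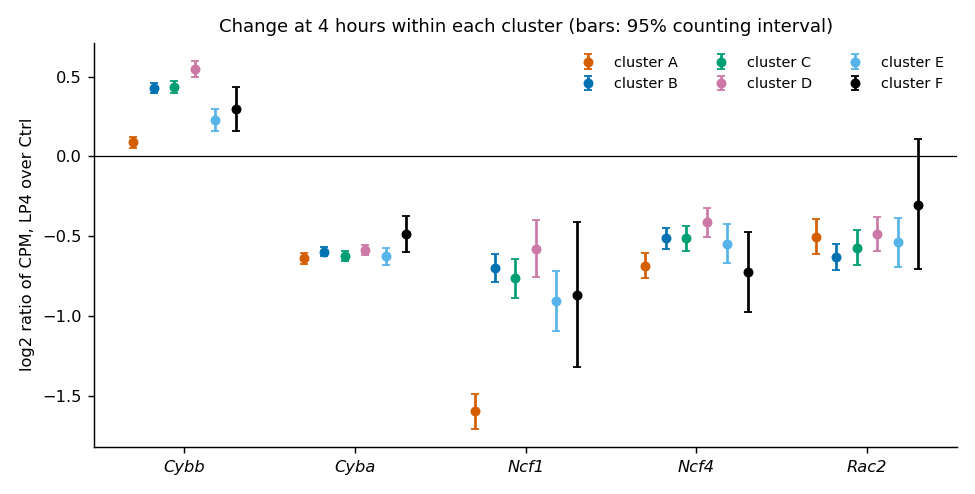
Log2 ratio of CPM, LP4 over Ctrl (vertical axis), of each oxidase gene within clusters A to F (colours), with exact 95% counting intervals. All points of *Cybb* lie above 0 and all points of the other 4 genes below 0, and *Ncf1* in cluster A lies lowest at -1.59, where most Ctrl and most LP4 cells of A belong to different finer clusters.

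Over the 18 sums of 6 clusters in 3 libraries, centred within each library, *Cyba* ran with *Ncf4* (Pearson r 0.87) and *Rac2* (0.76), while *Ncf1* ran against *Rac2* (-0.74) and *Cyba* (-0.48). *Cybb* had r of 0.40 with *Cyba*, 0.38 with *Ncf1* and *Ncf4* and -0.16 with *Rac2*. These are descriptions over points that share libraries and cluster definitions. Of 3792 genes with at least 50 CPM in 1 library, those most like *Cyba* were *Atox1* (r 0.98), *Mfge8* and *Ctsz* (both 0.97). Those most like *Ncf1* were *Ccl4*, *Socs3* and *Id3* (all 0.89), and those most like *Cybb* were *Mxd4* (0.94), *Slfn5* and *Cers6* (both 0.91). *Ncf4* was most like *S100a11* (0.98), *Lrpap1* (0.92) and *Gm2a* (0.91), and *Rac2* most like *Ppdpf* (0.96), *Ifi27* (0.94) and *Dnmt3a* (0.93). Likeness across clusters did not mean a like response over time, since *Ccl4* was at 114 CPM in Ctrl and 2524 in LP4 while *Id3* was at 140 and 14.6.

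A small neutrophil-like cluster of 85 cells, 25 to 28 in the treated libraries and 32 in Ctrl, carried a different mix. Neutrophils depend on this oxidase for their burst and are rich in its cytosolic subunits. In Ctrl these cells held 679 CPM of *Ncf1* (95% interval 530 to 856), 660 of *Ncf4* (513 to 835) and 612 of *Rac2* (471 to 781), all above the levels of clusters A to E, and 621 of *Cybb* (480 to 792), which lies below them. In LP4 the values were 655 CPM for *Ncf1* (557 to 766), 421 for *Ncf4* (343 to 512), 446 for *Rac2* (366 to 539) and 1502 for *Cybb* (1351 to 1665). With under 50 cells per library these are values, and the libraries were not compared in this cluster. Summed over all cells, the neutrophil markers stood at 417 CPM in Ctrl, 319 after 1 hour and 611 after 4 hours, with 4 of 12 at 10 CPM or more in each library. With the macrophage-like clusters alone, the 5 genes kept their directions and calls in every comparison.

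In LP4, 868 of 4625 thinned cells (18.8%) had a UMI of *Nos2*, which encodes the inducible nitric oxide synthase, the other main source of antimicrobial radicals in mouse macrophages. *Cybb* stood at 1487 CPM in cells with a *Nos2* UMI and 1536 in cells without, a log2 ratio of -0.05 (95% interval -0.11 to 0.02). *Ncf1* stood at 104 and 95.6 CPM, a log2 ratio of 0.12 (-0.13 to 0.36). *Rac2* was lower in the cells with *Nos2*, at 108 against 128 CPM (-0.25, -0.48 to -0.02), and *Cyba* at 1214 against 1274 (-0.07, -0.14 to -0.00064). The median depth before thinning was 12353 UMIs in the cells with *Nos2* and 11687 in the others.

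Genes that serve the oxidase were taken in lists by role from textbook knowledge of the pathway. The lists were chosen with earlier results of these data known, so their counts are not independent of the data. Of 56 such genes, 42 reached 10 CPM in a pair of libraries. In LP1, 2 of the 42 were higher than Ctrl by more than 1.5-fold, *Sod2* and *Prdx1*, and 1 was lower, *Sod1*, beside 4.12% and 2.74% of all genes, with a median of -0.10. In LP4, 6 were higher and 11 lower than Ctrl, with a median of -0.24, beside the 20.2% and 23.0% of all genes. Under TMM scaling 9 were higher (21.4%) and 5 lower (11.9%) in LP4, beside 26.5% and 16.3% of all genes. Under median of ratios the counts were again 9 and 5, beside 27.8% and 15.0% of all genes. Between the treated libraries, 4 were higher (9.52%) and 9 lower (21.4%) in LP4 than in LP1, beside 16.6% and 18.1% of all genes. Under TMM 5 were higher (11.9%) and 5 lower (11.9%), beside 19.4% and 14.5% of all genes. The counts of the single lists that follow rest on few genes and are to be read against the same shares of all genes.

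Among the 10 measured regulators of Rac, 5 fell in LP4 and 1 rose, where 23.0% of all genes were lower and 20.2% higher. Under TMM and under median of ratios 4 fell, since *Abr* then came under 1.5-fold, where 16.3% and 15.0% of all genes were lower. *Dock2* and *Vav3*, exchange factors that load Rac with GTP, fell from 710 to 181 CPM (log2 ratio -1.97) and from 589 to 181 CPM (-1.70). *Vav2* fell from 14.2 to 4.93 CPM, and *Arhgap25* and *Abr*, which promote hydrolysis of the bound GTP, had log2 ratios of -0.92 and -0.66. The 1 that rose was *Tiam1*, another exchange factor, from 45.8 to 74.4 CPM (0.70). In LP1, *Dock2* was at 644 CPM and *Vav3* at 561.

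Of the 10 measured kinases and lipid enzymes upstream, 5 fell in LP4 and 1 rose, where 23.0% of all genes were lower and 20.2% higher. Under TMM and under median of ratios, 1 of the 5 was still past 1.5-fold, *Prkcb*, and *Akt1* was higher besides *Pla2g4a*. Of all genes, 16.3% and 15.0% were then lower and 26.5% and 27.8% higher. *Prkcb*, a protein kinase C isoform that phosphorylates the organizer subunit, fell from 150 to 60.8 CPM (log2 ratio -1.30), and *Pak1*, *Irak4*, *Pik3c3* and *Pik3r4* had log2 ratios between -0.68 and -0.65. *Pik3c3* and *Pik3r4* encode parts of the kinase that makes the phosphoinositide bound by the *Ncf4* product. *Prkcd*, another protein kinase C isoform, was at 116, 105 and 144 CPM and did not pass 1.5-fold. *Pla2g4a*, the cytosolic phospholipase that releases arachidonic acid, rose from 22.1 CPM in Ctrl and 29.8 in LP1 to 220 in LP4 (log2 ratio to Ctrl 3.31, 95% interval 3.21 to 3.42).

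Among the 5 other genes of subunits and assembly, 1 passed 1.5-fold in LP4, *Rap1a*, a small GTPase found with the membrane pair, at 100 CPM in Ctrl and 162 in LP4 (log2 ratio 0.70). *Cybc1*, a chaperone needed for the membrane pair, was at 10.9, 13.5 and 8.65 CPM, and its fall from LP1 to LP4 passed 1.5-fold (-0.64). *Hvcn1*, the proton channel that balances the charge moved by the oxidase, was at 108, 101 and 109 CPM. Of 9 genes of other NADPH oxidases, 0 reached 10 CPM in any library. The highest was *Nox1* at 4.76 CPM in Ctrl, 3.83 after 1 hour and 2.28 after 4 hours.

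Of the transcription factors known for *Cybb*, 5 of 6 were measured and 0 passed 1.5-fold in LP4. *Spi1*, the myeloid ETS factor, was at 561, 512 and 506 CPM in Ctrl, LP1 and LP4, and *Irf8* at 145, 146 and 105. *Irf1* was at 181, 159 and 205 CPM, *Elf1* at 115, 112 and 142, and *Rela* at 59.9, 53.7 and 76.7. In LP4 *Spi1* and *Irf8* lay below their Ctrl levels and the other 3 above, with a median log2 ratio of 0.18. Under TMM or median-of-ratios scaling each of these ratios would be higher by 0.17 or 0.21, which puts *Spi1* on the other side of 0.

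Genes for NADPH supply had a median log2 ratio of -0.29 in LP4. Of 5 measured, 1 passed 1.5-fold, *Tkt*, transketolase of the pentose phosphate pathway, from 220 to 146 CPM (-0.59), which was under 1.5-fold with either of the other scalings. *G6pdx*, the entry enzyme of that pathway, was at 72.9, 53.5 and 62.0 CPM. The enzymes that dispose of superoxide and peroxide had a median of 0.54 in LP4, and 3 of 7 rose, where 20.2% of all genes were higher. Under TMM and under median of ratios *Cat* and *Txnrd1* passed 1.5-fold as well, where 26.5% and 27.8% of all genes were higher. *Sod2*, the mitochondrial superoxide dismutase, rose from 104 CPM in Ctrl to 221 in LP1 and 847 in LP4 (log2 ratios 1.09 and 3.03). *Prdx1*, a cytosolic peroxiredoxin, rose from 1324 to 2021 and 2334 CPM (0.61 and 0.82), and *Prdx5* from 542 to 902 in LP4 (0.74). *Sod1*, the cytosolic dismutase, fell in LP1 from 146 to 91.9 CPM (-0.67) and stood at 105 in LP4, no longer past 1.5-fold.

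**Figure D5:**
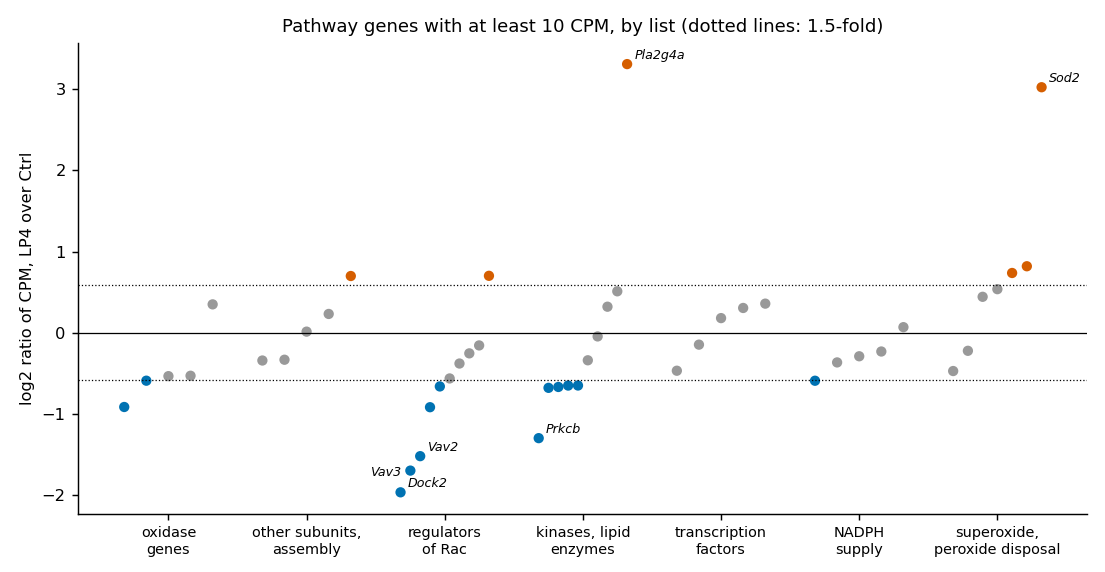
Log2 ratio of CPM, LP4 over Ctrl (vertical axis), of the oxidase genes and of pathway genes with at least 10 CPM, 1 point per gene, by list (horizontal axis); orange points are higher and blue points lower by more than 1.5-fold (dotted lines) and grey points neither. Of the 42 pathway genes 6 are orange and 11 blue, and the points furthest from 0 are *Pla2g4a* at 3.31, *Sod2* at 3.03 and *Dock2* at -1.97.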

How the data were processed

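RNA of single BMDMs was measured in 1 library each of Ctrl, LP1 and LP4. The authors aligned reads to mm10 with Cell Ranger, which the file headers give as 7.1.0, and deposited UMI counts per gene and called barcode, without normalization. Whether intronic reads were counted is not given in the sources used here. The members and lists were chosen with earlier results of these data known.

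Barcodes with over 500 UMIs, over 500 genes and under 5% mitochondrial UMIs were kept (99.2% of Ctrl, 98.9% of LP1, 92.7% of LP4), summed and scaled to CPM. Calls needed 1.5-fold and 10 CPM in the higher library. Intervals are exact Poisson (CPM), conditional binomial (ratios of counts) and Clopper-Pearson (shares); intervals for the change of a within-library ratio use the normal approximation on the log scale. Clusters were Leiden clusters at a resolution of 0.5 on 30 principal components of 2000 variable genes centred within their library, named from fixed markers. Scrublet marked at most 0.0395% of the cells of a library, so it had not worked; doublets were kept, and the 5% of cells with the highest scores were removed as an alternative. Named genes are the members, pathway genes past 1.5-fold and the 3 genes most like each member; *Rac1*, *Cybc1*, *Hvcn1*, *Nox1*, *Prkcd*, *G6pdx*, the transcription factors and the leading genes of clusters are named besides, chosen after their values were seen. Alternatives were other scalings, cell filters, cell subsets, folds, minimums, depths of thinning and resolutions. Promoters came from the RefSeq table of GRCm38.p6, which matched *Cybb*, *Cyba* and *Ncf1*. R 4.3.3 ran edgeR 4.0.16 for the TMM factors, and Python 3.11.15 ran scanpy 1.11.5, igraph 0.11.9, leidenalg 0.10.2, scikit-learn 1.9.0, matplotlib 3.10.9, pandas 2.3.3, scipy 1.17.1 and numpy 2.4.6. The comparison was tested on simulated data. The values of 1 pathway gene are not reported here. Other experiments of the study were not analysed here.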

Additional observations from a re-analysis of the deposited data

Results flagged for a closer look

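Of the oxidase and pathway genes, 6 pathway genes lay on one side of 0 after 1 hour and on the other after 4 hours against the same Ctrl library, with counting intervals that exclude 0 at both times; none is 1 of the 5 oxidase genes. The difference between the times was not tested, since each condition is 1 library and both ratios share the Ctrl library. The share of all genes that meet the same flag was not computed, so the count of 6 is not read as many or few. *Cybc1* had log2 ratios to Ctrl of 0.31 in LP1 and -0.33 in LP4. *Tiam1* had -0.13 and 0.70, and *Prkcd* -0.14 and 0.32. *Irf1* had -0.19 and 0.18, *Rela* -0.16 and 0.36, and *Pgd* -0.14 and 0.0677. Of these, only *Tiam1* in LP4 is past 1.5-fold against Ctrl. The flags rest on CPM. TMM and median of ratios raise all ratios by 0.0715 and 0.0758 in LP1 and by 0.17 and 0.21 in LP4. Either brings the upper bounds of *Tiam1* in LP1 (-0.0416) and *Cybc1* in LP4 (-0.141) past 0. Median of ratios does the same for *Rela* in LP1 (-0.0748).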

How the results depend on the processing

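No paired analysis was possible because each condition is 1 library. In LP4 over Ctrl and in LP4 over LP1, all 5 genes kept their direction under all 8 alternatives of scaling, cell filter and cell subset. The median log2 ratio of the 5 genes, -0.04 for LP1 over Ctrl, moved to 0.0268 under TMM, 0.0310 under median of ratios and -0.0652 as a mean of cell shares. For LP4 over Ctrl, -0.54, it moved to -0.37 under TMM, -0.33 under median of ratios, -0.59 with the stricter cell filter and -0.59 as a mean of cell shares. For LP4 over LP1, -0.49, it moved to -0.40, -0.36 and -0.54 under TMM, median of ratios and a mean of cell shares. *Ncf1* in LP4 stayed past 1.5-fold in 8 of 8, *Cyba* in 6 of 8, and *Ncf4* and *Rac2* passed it in 1 of 8 each. For LP4 over LP1, *Cyba* and *Ncf1* passed it in 1 of 8. The shares of all genes given above hold for 1.5-fold with 10 CPM, so they are not set beside the next counts. With a fold of 2, 2 of 42 pathway genes were higher and 4 lower in LP4 than in Ctrl. Of all genes, 10% had a log2 ratio below -0.99 and 10% one above 1.04, close to 2-fold in each direction. With 1.5-fold and a minimum of 50 CPM, 6 pathway genes were higher and 6 lower, and no share of all genes is given for that minimum. The cause was not tested. Of all genes past 1.5-fold in LP4 against Ctrl, 46.7% were higher, against 61.9% under TMM and 64.9% under median of ratios; for LP1 these shares were 60.1%, 75.4% and 76.1%, and for LP4 over LP1 47.8%, 57.3% and 60.5%. Without replicates, the spread between cultures was not measured.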

Other observations

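A cluster of 51 macrophage-like cells, led by the stress gene *Ddit3*, was too small to compare between libraries. Over all libraries it held 357 CPM of *Cybb* (exact Poisson 95% interval 305 to 414) and 59.8 of *Rac2* (40.0 to 85.8), below every one of the clusters A to F, while *Cyba* stood at 1880 CPM (1760 to 2006), within their range of 1499 in B to 2613 in D. *Ncf1* in these cells was at 130 CPM and *Ncf4* at 344.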
